A study of Homo sapiens with 4 samples.

Results

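The genes described here are the transcription factor NF-kB, its inhibitors and its main kinase. They were taken by symbol as 10 of the 57773 gene rows of each deposited table: the subunit genes NFKB1, NFKB2, RELA, RELB and REL, the inhibitor genes NFKBIA, NFKBIB and NFKBIE, the feedback enzyme gene TNFAIP3 and the kinase gene IKBKB. The RNA came from wild-type A2780 cells, a line founded from a human ovarian cancer and kept in RPMI medium with serum. The wogonin group was 2 libraries (numbers 3 and 4) from cells given wogonin, a plant flavone, at 10 ug/mL for 48 h. The DMSO group was 2 libraries (numbers 1 and 2) from cells given the vehicle, with no time of its own stated. The series asks whether a change in DNA demethylation links wogonin to slower tumour growth, and NF-kB is not named in its title or design.

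NF-kB proteins work as dimers of Rel-family subunits. NFKB1 and NFKB2 encode precursors, p105 and p100, which are trimmed to the DNA-binding subunits p50 and p52, while RELA, RELB and REL encode the subunits that carry activation domains. In resting cells the inhibitors encoded by NFKBIA, NFKBIB and NFKBIE hold the dimers in the cytoplasm until the kinase encoded by IKBKB marks the inhibitors for destruction, and NFKBIA and TNFAIP3 are themselves textbook NF-kB targets that close the loop. These steps act on proteins, and the libraries measured transcripts alone.

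Total exon reads per library lay between 11005921 and 11839562, and all 10 genes passed the filter on low counts. Among genes that have exons, introns held 7.96% of reads in wogonin 3 and 5.61% in wogonin 4, against 5.26% and 5.29% in DMSO 1 and 2. The share of exon reads from mitochondrial genes was 1.67% and 3.03% in wogonin 3 and 4, against 1.65% and 1.45% in DMSO 1 and 2. The part of these 2 shares in the results below was not tested. For the 10 NF-kB genes, values without a wogonin library are given where they change a call or move a called value by over 1.5 times. The labels call the cells ovarian adenocarcinoma, yet the defining markers were low or missing. The keratins KRT8, KRT18 and KRT19 and the cadherin CDH1 did not exceed 0.37 TPM in any library, EPCAM lay between 0.28 and 1.26 TPM, and PAX8 and WT1 did not exceed 0.17 TPM. MUC16 and WFDC2 were at 0 in all 4 libraries, as were the immune genes PTPRC and CD3E and the endothelial genes VWF and CDH5. The other immune markers were not all at 0: LYZ reached 1.48, CD14 0.59 and CD79A 0.48 TPM in their highest library. The ovarian marker MSLN reached 0.56 TPM. Summed over the 5 epithelial markers the level was 1.30 and 0.28 TPM in wogonin 3 and 4, against 1.46 and 1.74 TPM in DMSO 1 and 2, and over the 5 ovarian markers it was 0 and 0.17 TPM in wogonin 3 and 4, against 0.56 and 0.46 TPM in DMSO 1 and 2. Summed over 5 immune markers the level was 2.31 and 0.39 TPM in wogonin 3 and 4, and 0.86 and 0.80 TPM in DMSO 1 and 2. Summed over 4 fibroblast markers it was 5.41 and 5.83 TPM in wogonin 3 and 4, and 8.67 and 8.21 TPM in DMSO 1 and 2, most of it COL1A1 and LUM. DCN and PDGFRA did not exceed 1.00 and 0.11 TPM in any library.

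Transcripts of 6 of the 10 NF-kB genes were higher after wogonin and none was called lower. The risers were the p105 and p100 precursor genes NFKB1 and NFKB2, RELA, the inhibitor genes NFKBIB and NFKBIE, and the kinase gene IKBKB. RELB, REL, NFKBIA and TNFAIP3 did not pass. All the changes were small, with log2 fold changes (wogonin over DMSO) from -0.22 to 0.57 and a median of 0.31, against a median of -0.00066 over all genes tested. Calls came from edgeR's quasi-likelihood test on total exon reads at a Benjamini-Hochberg adjusted p under 0.05. That test called 63.8% of the 13449 genes tested, 32.3% as higher and 31.5% as lower, so a call was the usual outcome in these libraries. Library totals or upper-quartile scaling in place of TMM gave 4 of the 10 genes as higher and 1 as lower. In the reported fit the median size of change over the 10 genes (0.31 log2 units) was under that over all genes (0.43). The wogonin and DMSO libraries did not overlap for 7 of the 10 genes, against 81.9% of all genes tested. Bulk libraries give relative levels, so a change in the makeup of the culture and a change per cell cannot be told apart.

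**Figure D1:**
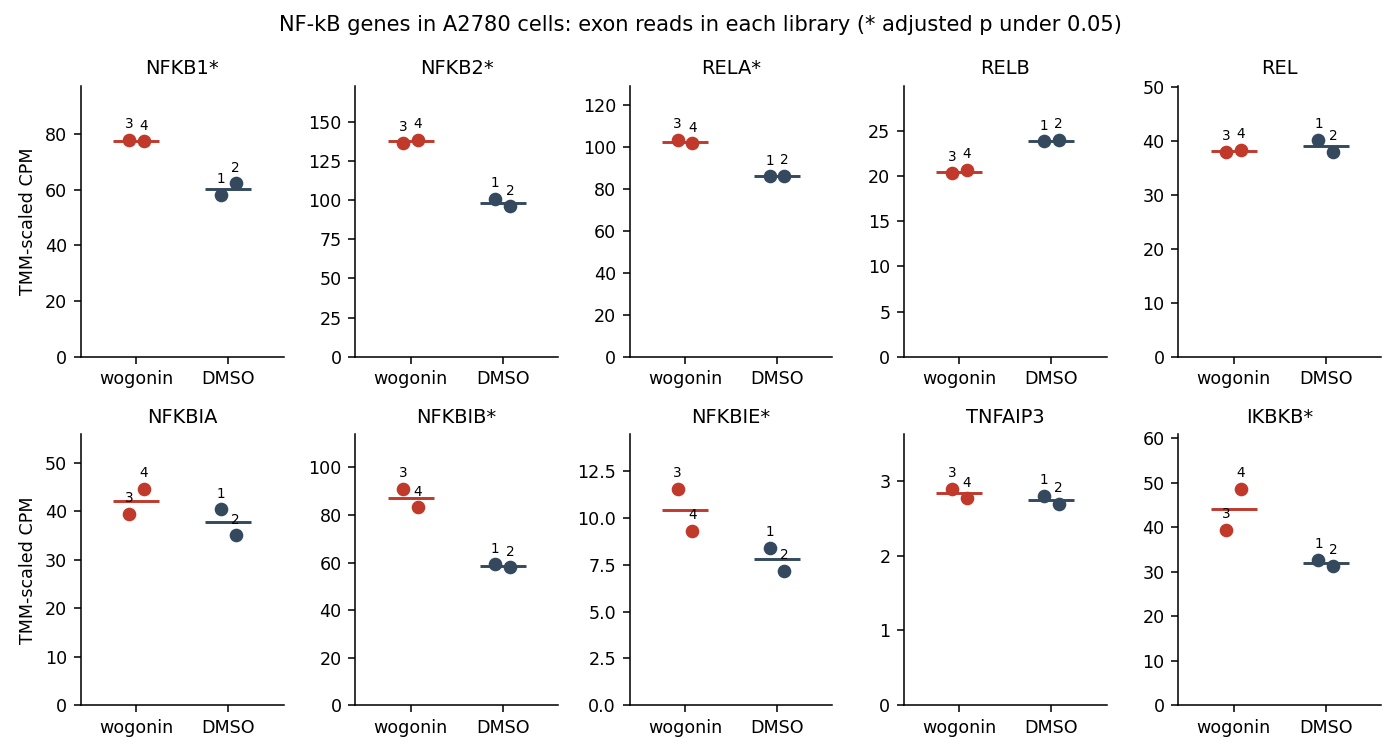
Level of each NF-kB gene in TMM-scaled CPM (y axis, from 0) in the wogonin libraries (red, numbers 3 and 4) and the DMSO libraries (blue, numbers 1 and 2), with bars at the group means and a star at genes with an edgeR adjusted p under 0.05. NFKB1, NFKB2, RELA, NFKBIB, NFKBIE and IKBKB lie higher in both wogonin libraries, RELB lies lower in both, and REL, NFKBIA and TNFAIP3 overlap between the groups.

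Per length of exon, in the deposited RPKM, NFKBIB stood at the top of the 10 genes and TNFAIP3 at the bottom in every library. NFKBIB averaged 32.6 ± 1.74 RPKM in wogonin and 24.0 ± 0.23 RPKM in DMSO (SD, n = 2 each, as for all means here). NFKB2 followed at 26.7 ± 0.50 RPKM in wogonin and 20.9 ± 0.62 RPKM in DMSO. RELA and NFKBIA came next and could not be ordered: RELA was at 16.4 ± 0.02 and NFKBIA at 15.5 ± 1.52 RPKM in wogonin, and RELA at 15.01 ± 0.12 and NFKBIA at 15.1 ± 1.44 RPKM in DMSO. NFKB1 (10.8 RPKM in wogonin, 9.17 in DMSO) and RELB (5.80 and 5.97 in wogonin, 7.45 and 7.56 in DMSO) held the fifth and sixth places in both groups. The kinase gene IKBKB, NFKBIE and REL lay between 2.68 and 4.25 RPKM in all libraries. REL was above NFKBIE and IKBKB in both DMSO libraries and below both in the 2 wogonin libraries. TNFAIP3, which encodes the ubiquitin-editing enzyme A20, had few reads, at 0.49 ± 0.01 RPKM in wogonin and 0.52 ± 0.01 RPKM in DMSO. RPKM was used as deposited, without TMM scaling, so group differences in it are on another scale than the tests. After TMM scaling TNFAIP3 was at 2.83 ± 0.09 CPM in wogonin and 2.75 ± 0.08 CPM in DMSO.

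**Figure D2:**
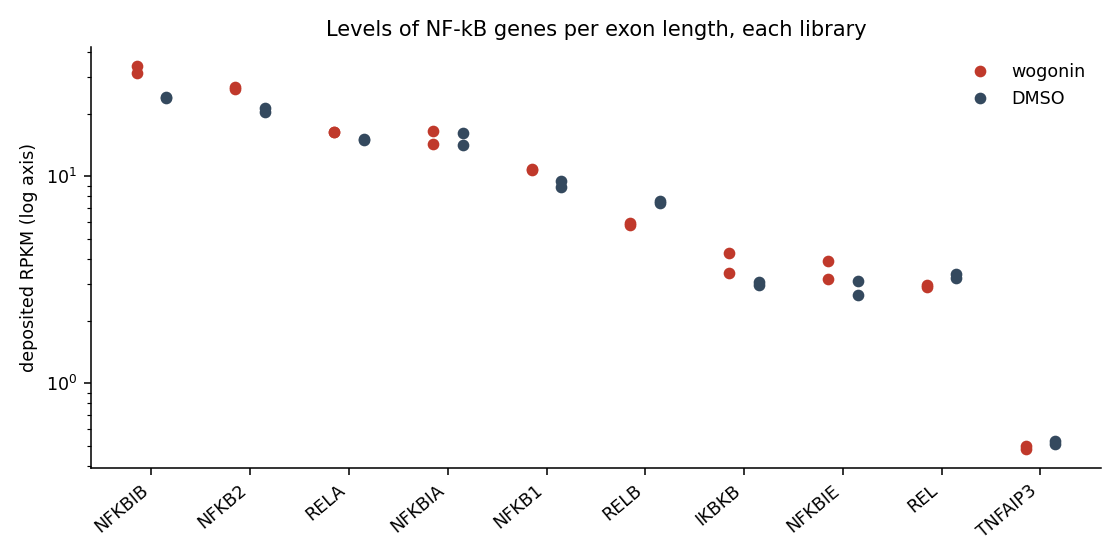
Deposited RPKM (y axis, logarithmic) of the 10 NF-kB genes in each wogonin library (red, left of each pair) and DMSO library (blue, right), ordered by mean level. NFKBIB and NFKB2 lead in both groups and TNFAIP3 stands lowest, near 0.5 RPKM.

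Start-site sequences were looked up for these genes because the family is known for switching on its own members. In RefSeq windows of 300 bases (250 before and 50 after a start site, GRCh38.p14), 7 of the 10 genes had an entry, with 12 windows in all. The kappaB consensus, searched on both strands with overlapping matches counted, was found in at least 1 window of 6 of these 7 genes. RELA was the gene with no match in its windows. Among all 27305 gene symbols with a window, 13.25% had a match, and of 22 genes on the list of described NF-kB targets 12 did. A match is a description of letters and shows no binding. Below, 4 windows are set side by side, from 2 genes that rose (NFKB2 and NFKBIB) and 2 that did not pass (NFKBIA and TNFAIP3), each 5′ to 3′ on the gene's strand with the matched stretches in capitals.
NFKB2, chr10:102394328-102394627, plus strand: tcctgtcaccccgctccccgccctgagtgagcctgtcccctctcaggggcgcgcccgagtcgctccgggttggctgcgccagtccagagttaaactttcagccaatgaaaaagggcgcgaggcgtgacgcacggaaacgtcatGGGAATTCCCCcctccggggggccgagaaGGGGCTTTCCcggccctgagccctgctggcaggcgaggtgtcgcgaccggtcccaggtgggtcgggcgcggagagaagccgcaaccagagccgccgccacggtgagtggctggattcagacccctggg
NFKBIB, chr19:38899719-38900018, plus strand: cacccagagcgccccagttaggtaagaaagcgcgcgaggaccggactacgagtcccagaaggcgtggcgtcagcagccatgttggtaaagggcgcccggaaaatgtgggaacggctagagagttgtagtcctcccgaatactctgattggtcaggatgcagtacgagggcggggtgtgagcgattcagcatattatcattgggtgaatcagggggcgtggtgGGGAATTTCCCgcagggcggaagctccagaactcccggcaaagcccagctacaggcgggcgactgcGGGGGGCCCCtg
NFKBIA, chr14:35404700-35404999, minus strand: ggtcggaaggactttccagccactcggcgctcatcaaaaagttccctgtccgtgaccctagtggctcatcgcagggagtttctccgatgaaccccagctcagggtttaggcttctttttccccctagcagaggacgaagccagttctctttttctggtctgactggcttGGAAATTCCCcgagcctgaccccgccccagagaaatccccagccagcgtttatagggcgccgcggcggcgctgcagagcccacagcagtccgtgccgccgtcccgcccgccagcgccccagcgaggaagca
TNFAIP3, chr6:137867009-137867308, plus strand: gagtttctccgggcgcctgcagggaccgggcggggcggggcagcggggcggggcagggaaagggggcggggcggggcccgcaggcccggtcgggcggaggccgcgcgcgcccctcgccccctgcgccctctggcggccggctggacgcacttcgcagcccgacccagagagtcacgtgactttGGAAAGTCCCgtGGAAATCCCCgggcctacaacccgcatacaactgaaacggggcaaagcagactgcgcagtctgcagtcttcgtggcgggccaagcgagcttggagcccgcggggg
NFKB2 holds 2 matched stretches, which begin 107 and 78 bases before the start site, NFKBIB holds 2 (28 bases before and 38 bases after it), NFKBIA holds 1 (81 bases before it) and TNFAIP3 holds 2 (67 and 55 bases before it). The second stretch of NFKBIB is made of G and C alone. Each window shown was the one with most matches of its gene. Other windows of NFKB2 had 0 and 3 matches, and the other window of NFKBIB had 0. As the genes and windows shown were picked, they cannot relate matches to called changes. RELA, called higher and not shown, had no match.

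Among the subunit genes, NFKB2 changed most. NFKB2 (ENSG00000077150, chromosome 10, 104153867 to 104162281 on GRCh37, as are all gene positions here) had 137 and 138 CPM in wogonin 3 and 4, against 101 and 95.9 CPM in DMSO 1 and 2 (CPM after TMM scaling between libraries). Both wogonin libraries lay above both DMSO libraries, by a gap several times the spread inside either group. The log2 fold change was 0.48 ± 0.07 (SE; 95% interval 0.34 to 0.62; edgeR adjusted p = 7.9e-06). Between 89.5% and 90.2% of its exon reads crossed an exon junction in each library, and the log2 fold change in such junction reads was 0.47.

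NFKB1 (ENSG00000109320, chromosome 4, 103422486 to 103538459) had 77.9 and 77.4 CPM in wogonin 3 and 4, against 58.3 and 62.4 CPM in DMSO 1 and 2. The wogonin libraries lay close together and above both DMSO libraries. The log2 fold change was 0.36 ± 0.08 (SE; 95% interval 0.20 to 0.53; edgeR adjusted p = 5.5e-04). RELA (ENSG00000173039, chromosome 11, 65421067 to 65430565), the activating partner of p50 in the classic dimer, had 103 and 102 CPM in wogonin 3 and 4, against 86.1 and 86.4 CPM in DMSO 1 and 2. Its groups did not overlap, but the rise was the smallest of the 6, with a log2 fold change of 0.25 ± 0.07 (SE; 95% interval 0.11 to 0.40; edgeR adjusted p = 0.0042). Scaled by library totals or by upper quartile the value was 0.16 and the call was lost (edgeR adjusted p = 0.055 and 0.053).

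RELB, whose protein pairs with p52 in the alternative pathway, went the other way without passing the test. RELB (ENSG00000104856, chromosome 19, 45504688 to 45541452) had 20.3 and 20.7 CPM in wogonin 3 and 4, against 23.8 and 24.0 CPM in DMSO 1 and 2. The groups did not overlap and the spread inside each was small, yet the log2 fold change of -0.22 ± 0.11 had a 95% interval that just reached 0 (-0.45 to 0.01; edgeR adjusted p = 0.084). It was called lower in 4 of 15 alternatives: library totals alone, upper-quartile scaling, total gene reads and unique gene reads, with values of -0.31, -0.31, -0.31 and -0.30. In junction reads the value was -0.13 (edgeR adjusted p = 0.43), which moves it by more than 1.5 times.

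REL, the c-Rel gene (ENSG00000162924, chromosome 2, 61108656 to 61158745), had 37.9 and 38.3 CPM in wogonin 3 and 4, against 40.1 and 37.9 CPM in DMSO 1 and 2, and the groups overlapped. The log2 fold change was -0.04 (95% interval -0.23 to 0.16; edgeR adjusted p = 0.75). REL was the one member with many exon reads that the deposited counts did not list as unique. What made a read count as not unique is not stated. Unique exon reads numbered 156 and 150 in wogonin 3 and 4, against 217 and 196 in DMSO 1 and 2. The other exon reads numbered 250 and 265 in wogonin 3 and 4, against 256 and 269 in DMSO 1 and 2, so the 2 kinds of read did not move alike. In unique exon reads the log2 fold change was -0.28 and did not pass (edgeR adjusted p = 0.066). In junction reads it was -0.40 (edgeR adjusted p = 0.27) from 29 and 24 reads in wogonin 3 and 4, against 47 and 31 in DMSO 1 and 2. The deposited annotation places a second transcript, RP11-373L24.1, inside the last 5702 bases of REL on the same strand, with 0 exon reads listed in every library. The part of this overlap in the reads that were not unique was not tested.

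Of the inhibitor genes, NFKBIB changed most. NFKBIB, which encodes IkB-beta (ENSG00000104825, chromosome 19, 39390340 to 39399533), had 91.1 and 83.2 CPM in wogonin 3 and 4, against 59.3 and 58.0 CPM in DMSO 1 and 2. Both wogonin libraries lay well above both DMSO libraries. Its log2 fold change of 0.57 ± 0.08 was the largest of the 10 genes (SE; 95% interval 0.41 to 0.74; edgeR adjusted p = 7.6e-06). The rise was smaller in reads across exon junctions, which numbered 227 and 229 in wogonin 3 and 4, against 194 and 204 in DMSO 1 and 2. There the log2 fold change was 0.35 and still passed (edgeR adjusted p = 0.013). Junction reads were 23.3% and 25.4% of the exon reads of NFKBIB in wogonin 3 and 4, against 27.8% and 28.7% in DMSO 1 and 2. The first 163 bases of NFKBIB overlap the start of SIRT2 on the opposite strand, whose exon reads were 268 and 294 in wogonin 3 and 4, against 235 and 209 in DMSO 1 and 2. The strand setting of the counts is not given, so the part of SIRT2 reads in the NFKBIB count was not tested.

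NFKBIA, which encodes IkB-alpha (ENSG00000100906, chromosome 14, 35870717 to 35873955), had 39.5 and 44.7 CPM in wogonin 3 and 4, against 40.5 and 35.1 CPM in DMSO 1 and 2. The groups overlapped, and the log2 fold change was 0.16 (95% interval -0.06 to 0.37; edgeR adjusted p = 0.18). That interval leaves room for a rise as large as that of NFKB1. The value moved with the library left out, to 0.25 without wogonin 3, 0.06 without wogonin 4, 0.25 without DMSO 1 and 0.05 without DMSO 2, and passed in none of these fits (edgeR adjusted p = 0.075, 0.68, 0.12 and 0.73). NFKBIE, which encodes IkB-epsilon (ENSG00000146232, chromosome 6, 44225903 to 44233500), rested on few reads: 124 and 101 exon reads in wogonin 3 and 4, against 99 and 88 in DMSO 1 and 2. In TMM-scaled CPM these were 11.6 and 9.31 in wogonin 3 and 4, and 8.40 and 7.18 in DMSO 1 and 2. The groups lay close but did not overlap, and the log2 fold change of 0.42 ± 0.17 passed narrowly (SE; 95% interval 0.06 to 0.79; edgeR adjusted p = 0.041). The call was lost in 10 of 15 alternatives. They include the fits without DMSO 1, without DMSO 2 and without wogonin 3, with values of 0.52, 0.31 and 0.26 (edgeR adjusted p = 0.074, 0.25 and 0.29). It held without wogonin 4 at 0.57 (edgeR adjusted p = 0.013).

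TNFAIP3 (ENSG00000118503, chromosome 6, 138188351 to 138204449) had a low level in both groups, with 31 and 30 exon reads in wogonin 3 and 4, against 33 and 33 in DMSO 1 and 2. After TMM scaling the groups overlapped, at 2.89 and 2.77 CPM in wogonin 3 and 4 and 2.80 and 2.69 CPM in DMSO 1 and 2. The log2 fold change of 0.04 had a wide 95% interval of -0.58 to 0.67 (edgeR adjusted p = 0.91), an interval that holds a rise as large as that of NFKBIB. IKBKB (ENSG00000104365, chromosome 8, 42128820 to 42189973), the IKK-beta kinase gene, had 39.4 and 48.7 CPM in wogonin 3 and 4, against 32.7 and 31.4 CPM in DMSO 1 and 2. Its wogonin libraries differed more from each other than those of most other members, yet both lay above both DMSO libraries. The log2 fold change was 0.46 ± 0.11 (SE; 95% interval 0.23 to 0.68; edgeR adjusted p = 0.0014). It was 0.29 without wogonin 4 (edgeR adjusted p = 0.031) and 0.61 without wogonin 3 (edgeR adjusted p = 1.2e-04).

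**Figure D3:**
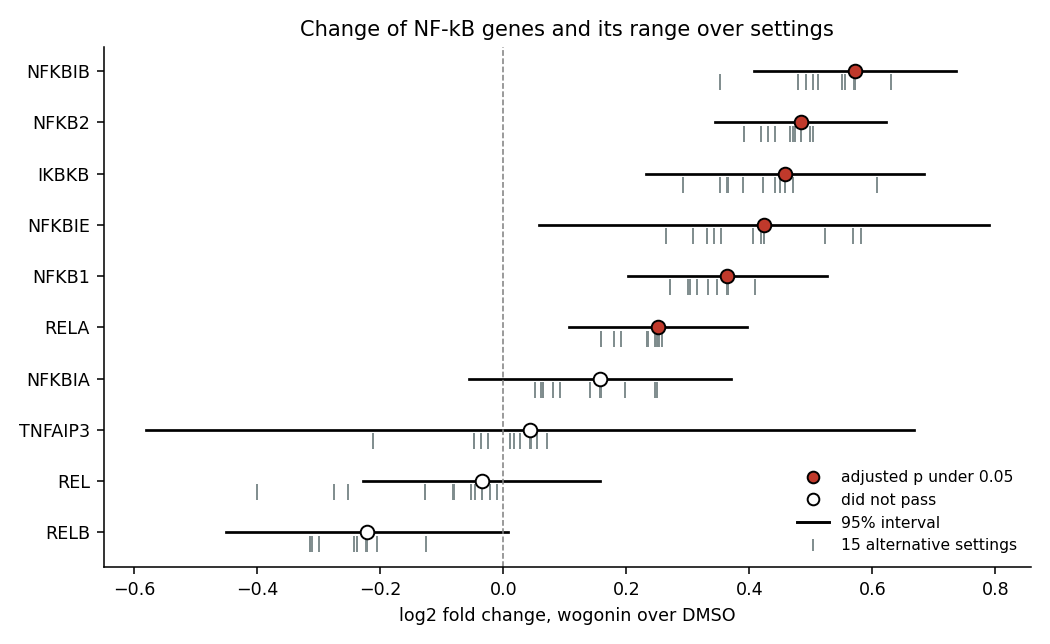
Log2 fold change of each NF-kB gene, wogonin over DMSO (x axis), with its 95% interval (line); filled points have an edgeR adjusted p under 0.05, and grey ticks are the values in 15 alternative settings. NFKBIB (0.57), NFKB2 (0.48) and IKBKB (0.46) lead, the interval of NFKBIE (0.06 to 0.79) comes close to 0, and RELB (-0.22) is lowest.

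Because the members moved unequally, ratios between them differed between the groups, and such ratios within a library do not depend on the scaling between libraries. The RPKM ratio of NFKB2 to RELB, whose products pair as p52 and RelB, was 4.55 and 4.53 in wogonin 3 and 4, against 2.86 and 2.71 in DMSO 1 and 2. The groups stood far apart beside the spread within each. RELA over REL was 5.63 and 5.48 in wogonin 3 and 4, against 4.42 and 4.69 in DMSO 1 and 2. NFKB1 over RELA, the genes of the classic p50 and RelA dimer, was 0.66 and 0.66 in wogonin 3 and 4, against 0.59 and 0.63 in DMSO 1 and 2, a small shift. NFKB2 over NFKB1 was 2.45 and 2.50 in wogonin 3 and 4, close to 2.42 in DMSO 1 and above 2.15 in DMSO 2. Among the inhibitors, NFKBIB over NFKBIA was 2.36 and 1.90 in wogonin 3 and 4, against 1.496 and 1.69 in DMSO 1 and 2. RELA over NFKBIA overlapped between the groups, at 1.14 and 0.99 in wogonin 3 and 4 and 0.92 and 1.07 in DMSO 1 and 2. Summed RPKM of the 3 inhibitor genes over that of the 5 subunit genes was 0.84 and 0.81 in wogonin 3 and 4, against 0.78 and 0.73 in DMSO 1 and 2. NFKBIB alone held 33.9 and 31.4 of inhibitor sums of 52.2 and 51.1 RPKM in wogonin 3 and 4. In DMSO 1 and 2 it held 24.2 and 23.8 of 43.4 and 40.6 RPKM. These ratios are given as values, and their differences were not tested.

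**Figure D4:**
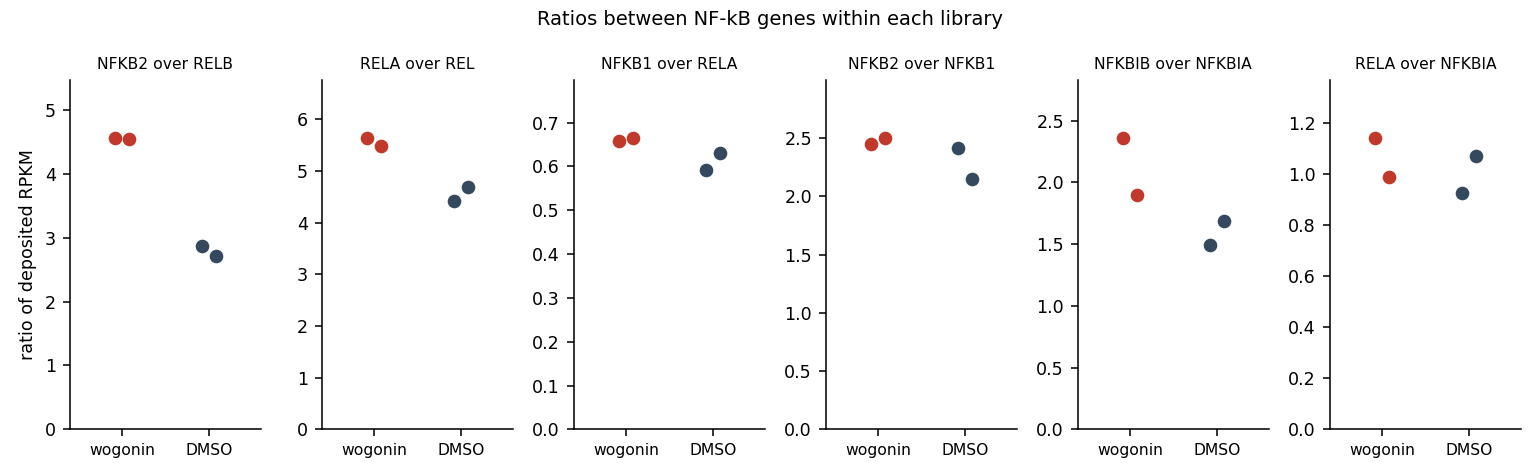
Ratio of deposited RPKM between pairs of NF-kB genes (y axes, from 0) within each wogonin library (red) and DMSO library (blue). NFKB2 over RELB is 4.55 and 4.53 in wogonin, against 2.86 and 2.71 in DMSO, while RELA over NFKBIA overlaps between the groups.

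Intron reads can come from unspliced transcripts, and their source was not tested here. They were enough to test for 4 of the 10 genes. By edgeR none of these 4 passed in intron reads, where 20.1% of 10495 genes did (11.3% as higher and 8.82% as lower), and 1 of them, RELB, had an unadjusted p under 0.05 (log2 fold change -0.79 ± 0.34 SE, edgeR adjusted p = 0.12). RELB had 31 and 19 intron reads in wogonin 3 and 4, against 37 and 32 in DMSO 1 and 2. NFKB2 had 28 and 50 intron reads in wogonin 3 and 4, against 21 and 16 in DMSO 1 and 2 (log2 fold change 0.83 ± 0.45, edgeR adjusted p = 0.21). The 2 wogonin libraries did not agree in its introns: without wogonin 3, the library with the high intron share, the value was 1.43 (edgeR adjusted p = 1.5e-04), and without wogonin 4 it was -0.03 (edgeR adjusted p = 0.96). For IKBKB the value was -0.20 and for RELA 0.26 (edgeR adjusted p = 0.65 and 0.70). RELA also changed sign with the wogonin library used, at 0.74 without wogonin 3 and -0.33 without wogonin 4, and passed in neither fit (edgeR adjusted p = 0.13 and 0.55).
The change in exon reads was then set against that in intron reads of the same gene. None of the 4 differed by edgeR (10.8% of 9475 genes did), none had an unadjusted p under 0.05, and the differences lay between -0.37 for NFKB2 and 0.57 for IKBKB. For NFKB2 the difference was -0.95 without wogonin 3 and passed (edgeR adjusted p = 0.029), but it had the opposite sign without wogonin 4, at 0.41 (edgeR adjusted p = 0.46). For IKBKB it was 0.86 without wogonin 3 and 0.40 without wogonin 4 (edgeR adjusted p = 0.010 and 0.24). RELA took either sign as well, at -0.50 without wogonin 3 and 0.50 without wogonin 4 (edgeR adjusted p = 0.36 and 0.38).

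Upstream of NF-kB, 12 of 25 tested kinase and adaptor genes (26 listed) rose, 4 fell and 9 missed the threshold. The share called, 16 of 25, was close to the 63.8% of all genes tested (32.3% higher and 31.5% lower), and the direction of the list was not tested. Library totals or upper-quartile scaling gave 11 that rose and 6 that fell. The list's median log2 fold change was 0.07 and took either sign over the alternatives, from -0.03 to 0.18. The risers include the adaptor gene MYD88, which reached the filter through the wogonin libraries, with 14 and 17 exon reads in wogonin 3 and 4, against 5 and 10 in DMSO 1 and 2. Its call (log2 fold change 1.19, edgeR adjusted p = 0.035) was lost in 7 of 14 alternatives, including the fit without each of the 4 libraries. The other IKK subunit genes also rose: the catalytic subunit gene CHUK had a log2 fold change of 0.51 and the scaffold gene IKBKG 0.47 (edgeR adjusted p = 5.7e-05 and 6.1e-04). RBCK1, part of the linear ubiquitin ligase that feeds the kinase complex, had 160 and 158 CPM in wogonin 3 and 4, against 97.5 and 90.0 CPM in DMSO 1 and 2 (log2 fold change 0.77, edgeR adjusted p = 5.4e-08). The other genes of that ligase, RNF31 and SHARPIN, rose by 0.58 and 0.33 on the log2 scale (edgeR adjusted p = 7.3e-06 and 0.0012), and SHARPIN lost its call in reads over whole genes. The kinase genes MAP3K7, whose product TAK1 activates IKK, and TBK1 rose by 0.68 and 0.63 (edgeR adjusted p = 1.5e-07 and 4.1e-06). The IKK-related kinase gene IKBKE fell most, to 5.32 and 5.72 CPM in wogonin 3 and 4, against 20.8 and 20.6 CPM in DMSO 1 and 2 (log2 fold change -1.90 ± 0.15, edgeR adjusted p = 1.3e-08). MAP3K14, the kinase of the alternative pathway, did not pass (log2 fold change 0.07, edgeR adjusted p = 0.61). Over 15 alternatives its value ran from -0.31 in unique exon reads to 0.43 in unique gene reads, and it was called higher in both fits of reads over whole genes, so no direction is given for it. Also lower were TRAF5, BCL10 and MALT1, with log2 fold changes of -0.90, -0.37 and -0.31 (edgeR adjusted p = 5.9e-06, 0.0063 and 0.024). BCL10 lost its call in 2 of 15 alternatives and MALT1 in 5. CHUK, IKBKG, RNF31, SHARPIN, MYD88, MAP3K14, TRAF5, BCL10 and MALT1 were named after their values were seen.

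A further list held regulators of IkB and of the ubiquitin chains around the kinase complex, most of them brakes on the pathway. Of 19 tested genes of 20 listed, 8 fell, 4 rose and 7 missed the threshold. The share called, 12 of 19, was again close to the 63.8% of all genes tested, and the direction was not tested. The list's median log2 fold change was -0.14, and between -0.28 and -0.03 over the alternatives. BCL3, which encodes a nuclear IkB relative that binds p50 and p52 dimers, had 6.44 and 5.16 CPM in wogonin 3 and 4, against 18.2 and 13.2 CPM in DMSO 1 and 2 (log2 fold change -1.43 ± 0.20, edgeR adjusted p = 1.0e-05). CYLD, a deubiquitinase that removes the chains IKK needs, fell by 1.12 on the log2 scale, to 14.3 and 14.9 CPM in wogonin 3 and 4, against 30.7 and 33.0 CPM in DMSO 1 and 2 (edgeR adjusted p = 2.4e-07). The A20-binding protein gene TNIP1 fell by 1.07 (edgeR adjusted p = 6.4e-08). Among the 4 that rose were FBXW11 and BTRC, ubiquitin ligase subunits that mark phosphorylated IkB for destruction and so are not brakes. FBXW11 rose by 0.64 and BTRC, named after its value was seen, by 0.34 on the log2 scale (edgeR adjusted p = 2.6e-07 and 0.0037). The call of BTRC was lost without DMSO 1 (value 0.30, edgeR adjusted p = 0.053).
Of 33 genes of the upstream and regulator lists tested for exon against intron change, 3 passed, a share close to the 10.8% of all genes tested. They are described as values, and NFKBIZ and SHARPIN were named after theirs were seen. NFKBIZ had 26 and 25 exon reads in wogonin 3 and 4, against 25 and 23 in DMSO 1 and 2. Its intron reads were 158 and 150 in wogonin 3 and 4, against 28 and 44 in DMSO 1 and 2 (exon minus intron difference -1.65, edgeR adjusted p = 0.022). That call was lost without DMSO 1 and without DMSO 2, at -1.29 and -2.08 (edgeR adjusted p = 0.38 and 0.054). TNIP1 had a difference of -2.65, with 51 and 39 intron reads in wogonin 3 and 4, against 4 and 22 in DMSO 1 and 2, and SHARPIN one of 1.37 (edgeR adjusted p = 0.0028 and 0.0093). TNIP1 passed without each library in turn, at -1.87 without DMSO 1 and -4.34 without DMSO 2, while SHARPIN lost its call without DMSO 1 and without DMSO 2, at 1.42 and 1.30 (edgeR adjusted p = 0.14 and 0.21).

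Receptors and ligands that drive the pathway were mostly near 0. Of 22 listed genes 17 did not reach the filter in either group, among them TNFRSF1B, CD40, TLR2, TLR4, TNFSF11 and CD40LG with 0 exon reads in all 4 libraries. TNF, the ligand gene, had 5 and 4 exon reads in wogonin 3 and 4, against 0 and 0 in DMSO 1 and 2. IL1RAP, of the same list, went the other way, with 1 and 0 in wogonin 3 and 4, against 9 and 5 in DMSO 1 and 2. Both missed the filter, were not tested and were named after their values were seen. The TNF receptor gene TNFRSF1A was well expressed and did not pass, at 119 and 133 CPM in wogonin 3 and 4, against 124 and 115 CPM in DMSO 1 and 2 (log2 fold change 0.07, edgeR adjusted p = 0.40). Of the 5 genes tested 3 fell and none rose. The share called, 3 of 5, was close to the 63.8% of all genes tested (32.3% higher and 31.5% lower). With so few genes the direction of the list was not tested. TLR3, a sensor of double-stranded RNA, had 22 and 42 exon reads in wogonin 3 and 4, against 196 and 195 in DMSO 1 and 2 (log2 fold change -2.45 ± 0.23, edgeR adjusted p = 9.5e-08). IL1R1, the interleukin 1 receptor gene, had 10 and 25 exon reads in wogonin 3 and 4, against 97 and 87 in DMSO 1 and 2 (log2 fold change -2.23 ± 0.33, edgeR adjusted p = 1.6e-05). Most of them were not listed as unique, and the unique ones numbered 2 and 8 in wogonin 3 and 4, against 32 and 28 in DMSO 1 and 2. TNFRSF11A, the RANK gene, had 3 and 5 exon reads in wogonin 3 and 4, against 13 and 11 in DMSO 1 and 2, and so reached the filter through the DMSO libraries. Its call (edgeR adjusted p = 0.034) was lost in 6 of 13 alternatives, including the fit without each of the 4 libraries.

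Described targets of NF-kB were called in both directions. The list leaves out NFKBIA and TNFAIP3, targets that stand among the NF-kB genes above and did not pass. Of 28 listed genes 10 were tested, 2 rose, 4 fell and 4 missed the threshold. The share called, 6 of 10, was close to the 63.8% of all genes tested (32.3% higher and 31.5% lower). The direction of the list was not tested. The list's median log2 fold change was -0.13, and between -0.32 and 0.03 over the alternatives. The classic inflammatory targets were close to silent: IL6, CSF2, SELE and CXCL2 had 0 exon reads in all 4 libraries, and IL8, CXCL1, CCL2 and CCL20 had 8 or fewer in each. SOD2, the mitochondrial superoxide dismutase gene, had 212 and 202 CPM in wogonin 3 and 4, against 127 and 132 CPM in DMSO 1 and 2 (log2 fold change 0.67 ± 0.06, edgeR adjusted p = 9.3e-08). LIF, a cytokine of the interleukin 6 family, had 44.7 and 54.9 CPM in wogonin 3 and 4, against 21.1 and 18.4 CPM in DMSO 1 and 2 (log2 fold change 1.34 ± 0.12, edgeR adjusted p = 1.4e-07). The caspase 8 inhibitor gene CFLAR fell by 0.56 on the log2 scale (edgeR adjusted p = 1.1e-04). In its junction reads, 28 and 36 in wogonin 3 and 4, against 106 and 109 in DMSO 1 and 2, it fell by 1.59 (edgeR adjusted p = 1.2e-06). The survival gene BCL2L1 fell by 0.34 (edgeR adjusted p = 0.0018), a call lost in junction reads (value -0.24, edgeR adjusted p = 0.35).

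**Figure D5:**
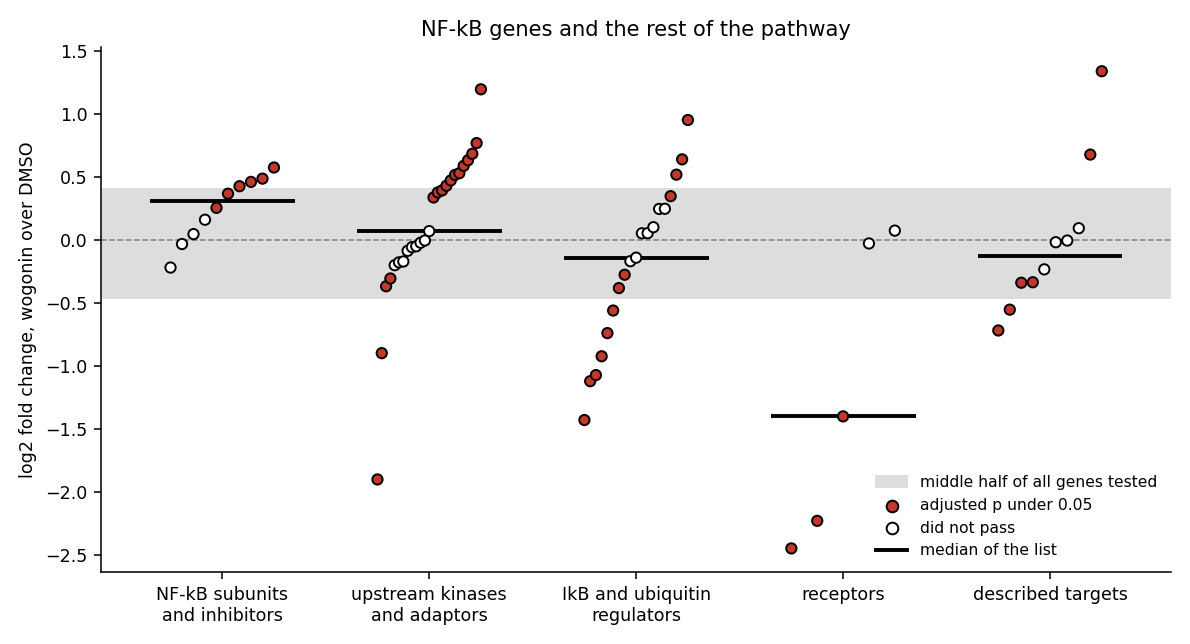
Log2 fold change, wogonin over DMSO (y axis), of each tested gene of the NF-kB family and 4 pathway lists; filled points have an edgeR adjusted p under 0.05, black bars are list medians and the grey band spans the middle of all genes tested, between the lower and upper quartiles (-0.46 to 0.40). The family's values lie between -0.22 and 0.57, with most above 0, while receptors and regulators of IkB and ubiquitin reach down to -2.45 and -1.43.

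The genes whose pattern over the 4 libraries was nearest to that of NFKBIB, by Euclidean distance of centred log2 CPM, were NAA10, HINT1 and GUK1, at distances of 0.014, 0.014 and 0.015. No member was called lower, so no such list was drawn for a fall.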

How the data were processed

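Per the file headers, the authors deposited for each library counts of reads per gene in exons, introns and across exon junctions, TPM and RPKM values computed from exon counts, and the fraction of reads that were unique. Builds GRCh37 and hg19 are named in the submitters' processing notes. For the aligner, counter and strand setting, nothing is given in the sources used here. The SMARTER mRNA-Seq kit was used, per the labels' protocols. Total exon counts were fitted over the whole table in R 4.3.3 by the robust quasi-likelihood method of edgeR 4.0.16 (filterByExpr filter, TMM scaling, treatment as its single term, 2-sided, Benjamini-Hochberg over all genes tested). Intron counts of genes with exons were fitted alike, and exon against intron change as an interaction with library as a block. Standard errors came from the fitted model's information and moderated dispersion. The fits were also run on simulated counts with few changed genes and the same dispersion for every gene. That setting differs from these data, so it does not check the calls made here. RPKM, TPM and the fraction were described only. Alternatives included DESeq2 1.42.0 and limma-voom (limma 3.58.1). Junction reads were added as an alternative after seeing the data.

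The members and lists were chosen with earlier results of these data known. All 10 members are described. Up to 4 genes of each pathway list with the smallest adjusted p are named, with the 3 genes nearest to the called member of largest rise and largest fall, and the cell markers. Others were named after their values were seen. PECAM1, of the endothelial markers, was matched to no row by symbol and is not used here. Exon counts differed beyond sampling noise within both groups (chi-square per degree of freedom 6.77 between the wogonin libraries and 2.86 between the DMSO libraries), so each library counted once. At these depths 3 counts were worth 0.25 to 0.27 CPM, a floor that covers counting error only. Nothing in the labels ties a library to a culture of its own. The p-values therefore measure the spread between these samples alone, and that spread may be technical.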

Additional observations from a re-analysis of the deposited data

How the results depend on the processing

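Over 15 alternatives (DESeq2-style size factors, scaling by library totals or by upper quartile, no filter, a mean of at least 10 counts, DESeq2, limma-voom, 4 other count columns and each library left out), the count of genes past the threshold stayed within 1.5 times the reported 8577, between 6265 in junction reads and 9141 without a filter. The count of NF-kB genes was 5 or 6 in each. NFKB1, NFKB2, NFKBIB and IKBKB passed as higher in all 15, at log2 fold changes of 0.27 to 0.41, 0.39 to 0.50, 0.35 to 0.63 and 0.29 to 0.61. RELA lost its call in 2, NFKBIE in 10, and RELB gained one as lower in 4. REL, NFKBIA and TNFAIP3 passed in none, and TNFAIP3, at -0.21 to 0.07, took either sign. With library totals or upper-quartile scaling the all-gene median was -0.09, and 4 NF-kB genes were higher and 1 lower. The counts for introns and for exon against intron change moved with the library left out. Genes past the threshold in intron reads numbered 2113, and 653 without DMSO 1, 730 without DMSO 2, 3572 without wogonin 3 and 4008 without wogonin 4. For exon against intron change the count was 1019, and 216, 245, 2169 and 2640 without the same libraries in turn. The cause was not tested. In fits that leave a lone sample in a group, it is assumed to vary like the other group. Depth limits TNFAIP3, NFKBIE, most receptors and all intron values. No paired analysis was possible because the groups share no replicate numbers.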
